A study of Mus musculus with 22 samples.

Results

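The 8 genes described here encode proteins that move or bind zinc in pancreatic islets. They are the zinc exporters Slc30a8, Slc30a1, Slc30a5 and Slc30a7, the zinc importers Slc39a8 and Slc39a14, and the metallothioneins Mt1 and Mt2. They were taken by gene symbol from a table of 57010 gene rows, and each symbol stood on 1 row. The study measured polyadenylated RNA from isolated islets of 22 male mice, with the islets of 1 mouse in each library. The mice were 5.5 weeks old by the series description and 5 to 6 weeks old by the column names. There were 5 wild-type (WT) mice on the background that the labels call C57, 6 C57 mice heterozygous (Het) for the S64F change in MafA, 5 WT mice on the background called Mixed and 6 Mixed Het mice. MafA is a transcription factor of mature beta cells, the insulin-producing cells of the islet. The strains behind the Mixed background and the way the S64F allele was made are not given in the sources used here.

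Zinc transporters fall into a pair of families with opposite directions of transport. SLC30 proteins (ZnT) move zinc out of the cytosol, into organelles or out of the cell, and SLC39 proteins (ZIP) move it into the cytosol. Beta cells concentrate zinc in insulin granules, where it packs insulin into crystals, and Slc30a8 encodes the transporter that fills these granules. Metallothioneins are small cysteine-rich proteins that bind free zinc, and their genes are switched on by the zinc-sensing factor Mtf1 through metal response elements, and also by glucocorticoids and oxidative stress.

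RefSeq promoter windows on GRCm38.p6, from 250 bases before to 50 bases after an annotated start, were found for 6 of the 8 genes, with a pair of windows for Slc39a8. They were searched on both strands for the core letters of the metal response element, TGCACNC and TGCGCNC, where N is any base. The windows below are those of the genes with the most matches, and capitals mark the matched letters as they read on the printed strand. They are Mt1 at chr8:94178839-94179138, Mt2 at chr8:94172368-94172667 and Slc30a1 at chr1:191906531-191906830, each on the plus strand and written 5′ to 3′.
Mt1: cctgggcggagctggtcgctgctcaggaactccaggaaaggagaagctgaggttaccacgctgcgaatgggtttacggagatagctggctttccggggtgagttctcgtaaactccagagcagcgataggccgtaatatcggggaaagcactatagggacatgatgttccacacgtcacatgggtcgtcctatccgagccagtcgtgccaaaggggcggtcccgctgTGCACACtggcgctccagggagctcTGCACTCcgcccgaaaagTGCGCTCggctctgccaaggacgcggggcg
Mt2: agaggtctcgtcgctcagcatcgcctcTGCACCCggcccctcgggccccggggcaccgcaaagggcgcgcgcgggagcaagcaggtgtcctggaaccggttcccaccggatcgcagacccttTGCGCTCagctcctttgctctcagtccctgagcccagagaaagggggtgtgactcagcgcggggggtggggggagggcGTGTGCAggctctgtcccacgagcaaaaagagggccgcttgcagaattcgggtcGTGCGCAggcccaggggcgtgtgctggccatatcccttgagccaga
Slc30a1: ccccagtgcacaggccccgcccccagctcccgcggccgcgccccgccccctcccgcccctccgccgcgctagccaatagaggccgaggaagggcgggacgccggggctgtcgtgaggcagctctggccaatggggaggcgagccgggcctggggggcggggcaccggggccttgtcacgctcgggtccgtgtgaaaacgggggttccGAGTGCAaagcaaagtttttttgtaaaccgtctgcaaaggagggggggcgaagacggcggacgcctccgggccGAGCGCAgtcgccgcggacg

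The Mt2 window held 4 matches, which 0.517% of 32851 promoter windows of the same length reached or exceeded. The Mt1 window held 3 matches, a number reached by 1.97% of windows, and all 3 read in the direction of the gene. The Slc30a1 window held 2 matches, both on the opposite strand, and 7.11% of windows held at least as many. Slc30a5 and 1 of the windows of Slc39a8 held 1 match each, where 25.7% of windows held 1 or more, and Slc30a7 and the other Slc39a8 window held 0. The half-site letters of MAF factors, TGCTGAC and TGCTGAG, occurred once in the Mt2 window and in no window of the other 5 genes, against 12.1% of all windows with at least 1. Slc30a8 and Slc39a14 had no window in the table. A match is a run of letters and was not tested as a binding site.

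Levels are given in TPM, transcripts per 1000000 transcripts, which is scaled to gene length and can be compared between genes. Group means ran from 0.350 TPM for Slc39a8 in C57 WT islets to 1414 TPM for Slc30a8 in Mixed WT islets. In every group Slc30a8 was the highest on average, followed by Mt2 and Mt1, then Slc30a5, Slc30a7, Slc30a1, Slc39a14 and Slc39a8. Neighbours in this order were separate in every mouse of all 4 groups for Mt1 above Slc30a5 and for Slc30a5 above Slc30a7. The ranges of Slc30a8 and Mt2 overlapped in C57 WT islets only, and those of Mt2 and Mt1 were separate in Mixed WT islets only. Slc30a7 and Slc30a1 did not separate in 3 of the 4 groups, and in Mixed Het islets Slc39a8 reached the range of Slc39a14.

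**Figure D1:**
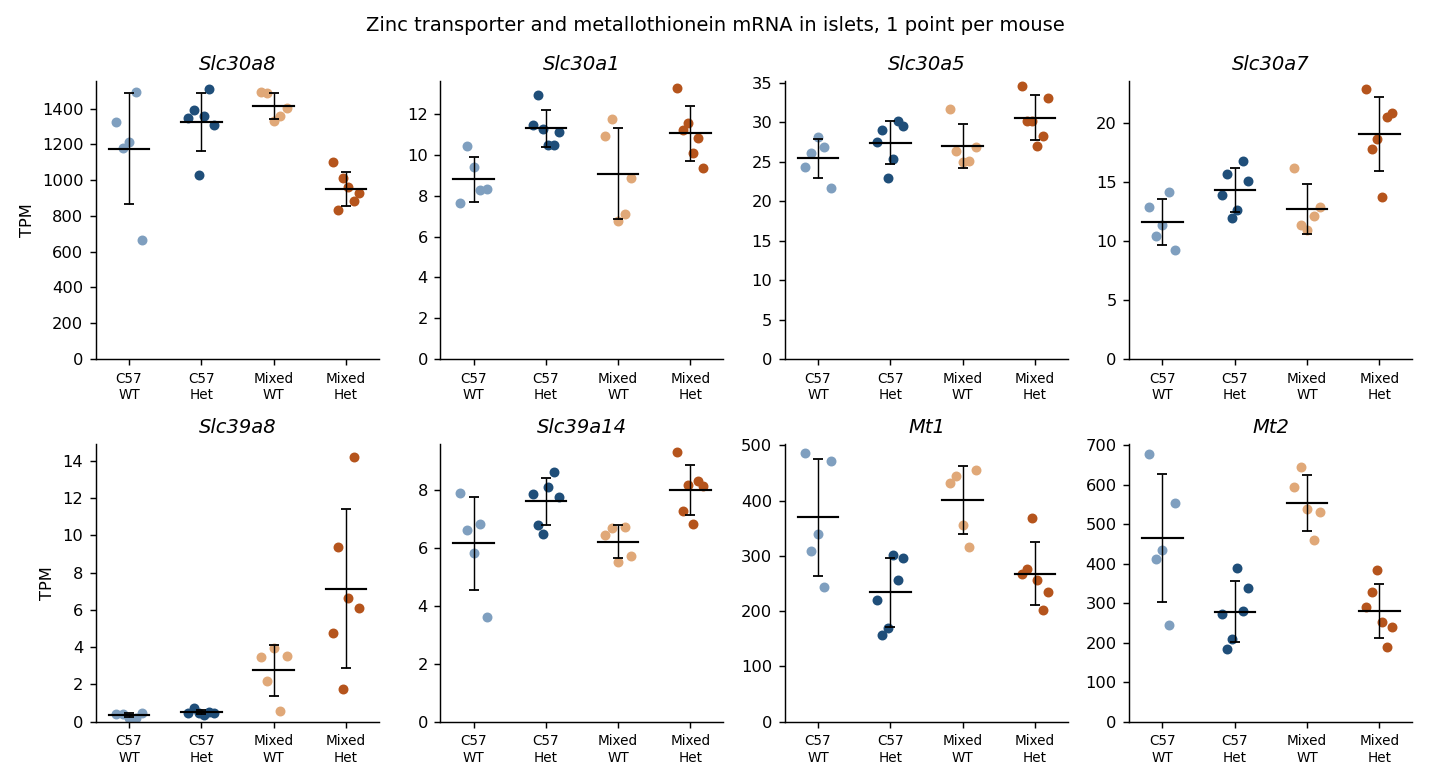
Level of each of the 8 genes (TPM, linear axis from 0) in each mouse, by group; 1 point is 1 mouse, the long line is the group mean and the bars are ± 1 SD. Slc30a8 was between 831 and 1102 TPM in the 6 Mixed Het mice and at 1329 TPM or more in the 5 Mixed WT mice, and Slc39a8 was under 1 TPM in all 11 C57 mice.

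Facts of the whole table bear on these values. Mafa mRNA in Het islets was 26.5% of WT on C57 and 25.4% on Mixed, with every Het mouse below every WT mouse of its background. Het and WT groups did not overlap in 21.0% of all genes on C57 and 23.6% on Mixed. Ins1 and Ins2 together held between 21.5% and 44.2% of all TPM, and no marker of beta, alpha, acinar, ductal, immune, mesenchymal or endothelial cells was at 0 in a whole group. The summed TPM of 7 beta-cell markers was 349000 to 420000 in C57 WT and 289400 to 349300 in C57 Het islets, and 368900 to 447200 in Mixed WT against 218500 to 312100 in Mixed Het islets. The sum of 6 alpha-cell markers was 17460 to 53100, 66180 to 109900, 14770 to 26540 and 61350 to 102200 in the same order. Both sums were mostly hormone transcripts. In C57 WT islets the means were 132900 TPM for Ins1, 260500 TPM for Ins2 and 35280 TPM for Gcg. Markers were called by limma as set out below, where 26.4% of all genes rose and 11.6% fell on C57. On Mixed 30.7% of all genes rose and 13.5% fell. Of the 7 beta-cell markers 1 fell and 1 rose on C57, and 5 fell and 0 rose on Mixed. Of the 6 alpha-cell markers 6 rose on each background, of 6 acinar markers 6 rose on C57 and 1 on Mixed, and of 4 ductal markers 2 and 4 rose. With no filter the C57 calls of Gcg (limma adjusted p = 0.201), Prss2 (0.0695) and Sox9 (0.0623) and the Mixed call of Krt19 (0.0572) ended. Single mice also ended those of Prss2, Sox9 and Krt19 (up to 0.0833). The Mixed call of Cela1 ended without Mixed WT replicate 4, alone or with C57 WT replicates 1 and 5 (0.0586 and 0.0645). That of Krt7 ended under all 3 other scalings (0.106 to 0.254). Of 3 delta and PP markers Sst and Hhex rose on each background, and the sum of the 3 was 18090 to 41460 TPM in Mixed WT against 40250 to 75420 TPM in Mixed Het islets. The C57 call of Sst ended with no filter (limma adjusted p = 0.124). The part of these cell types in the results below was not tested. In bulk islets a change in the number of cells of a type and a change in RNA per cell cannot be told apart. The share of TPM from mitochondrially encoded genes exceeded 8% in 3 libraries, replicates 1 and 5 of C57 WT and replicate 4 of Mixed WT. It was 4.27 to 9.76% over C57 WT, 3.86 to 4.39% over C57 Het, 4.37 to 9.76% over Mixed WT and 2.80 to 4.06% over Mixed Het libraries. The calls below are therefore also given without those 3 libraries where this ends a call or moves a called value by more than 1.5 times.

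All 8 genes passed the filter on low values, Slc39a8 only through its level in Mixed islets. A gene was called where limma's adjusted p, over 16756 genes, was under 0.05, and differences are on the log2(TPM + 1) scale. On C57, 3 of the 8 genes were called between Het and WT islets, 1 higher and 2 lower, where 38.0% of all genes tested were called (26.4% higher and 11.6% lower). On Mixed, 6 of the 8 were called, 3 higher and 3 lower, where 44.1% of all genes were called (30.7% higher and 13.5% lower). The median difference of the 8 genes was 0.19 on C57 and 0.23 on Mixed, and the median of all genes tested was 0.08 and 0.10. The interaction, the difference between both genotype differences, was called for 1 of the 8 genes, where 7.36% of all genes were called. Without the 3 libraries high in mitochondrial transcripts, 0 of the 8 genes were called by limma on C57 (1 at an unadjusted p under 0.05), 6 on Mixed and 1 for the interaction. Scaling moved the median of all genes in the Mixed comparison by -0.11, from 0.10 to -0.01, when median-of-ratios scaling replaced the deposited one, so differences on the deposited scale are to be read against these medians.

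**Figure D2:**
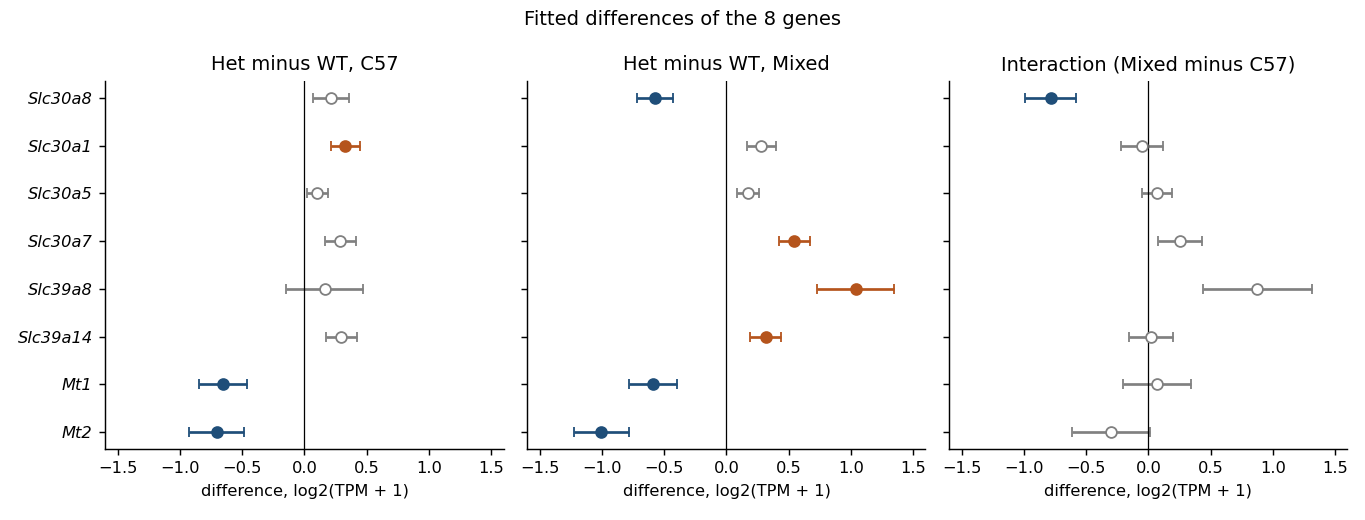
Fitted differences of the 8 genes on the log2(TPM + 1) scale, for Het minus WT on C57, Het minus WT on Mixed, and the interaction (the Mixed difference minus the C57 difference). Points are limma estimates, bars are ± 1 SE, and filled points have an adjusted p under 0.05: 3 genes on C57, 6 on Mixed and Slc30a8 in the interaction.

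Slc30a8 (ENSMUSG00000022315), which encodes the granule transporter, fell in Het islets of Mixed mice. Its level in the 5 Mixed WT mice was 1494, 1487, 1329, 1360 and 1401 TPM. In the 6 Mixed Het mice it ran from 831 to 1102 TPM with a median of 945 TPM, so that every Het mouse lay below every WT mouse, a separation of groups that 23.6% of all genes showed in this comparison. The Het mean was 67.4% of the WT mean, 953 ± 95.8 against 1414 ± 74.3 TPM (SD, n = 6 and 5). The fitted difference was -0.57 (SE 0.14, limma adjusted p = 0.00288), and an exact permutation test over the 462 splits of the mice gave p = 0.00216, the smallest it can give (two-sided, adjusted over 16 tests 0.0173).

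On C57 the Slc30a8 difference did not pass the test. C57 WT islets had 1323, 1182, 1216, 1491 and 665 TPM, and C57 Het islets ran from 1028 to 1512 TPM with a median of 1353 TPM. The means were 1176 ± 309.6 TPM (SD, n = 5) and 1325 ± 161 TPM (n = 6), a fitted difference of 0.21 (SE 0.14, limma adjusted p = 0.254). WT replicate 5, at 665 TPM, was the lowest of all 22 mice, and without it the C57 difference was 0.02. The interaction was -0.79 (SE 0.20, limma adjusted p = 0.0246). Leaving out each mouse in turn kept it between -0.88 and -0.59, with adjusted p from 0.0125 to 0.0441, and without the 3 libraries high in mitochondrial transcripts it was -0.62 (adjusted p = 0.0331). With no filter on low values the estimate was the same and the adjusted p over more genes was 0.0617.

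Between backgrounds, the Slc30a8 mRNA of Het islets was lower on Mixed than on C57, a difference of -0.47 (limma adjusted p = 0.018). The ranges met, since the highest Mixed Het mouse had 1102 TPM and the lowest C57 Het mouse 1028 TPM. In WT islets the difference between backgrounds was 0.32 (adjusted p = 0.184), with 5 of 5 Mixed mice above the C57 mean, and 0.12 without C57 WT replicate 5. These comparisons share mice with the genotype comparisons and are not separate evidence.

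Other genes of the insulin granule were called on both backgrounds. The list held 9 of them, all tested, and the same 5 were called on each background, where 38.0% of all genes were called on C57 and 44.1% on Mixed. Cpe, Pam, Chgb and Scg2 rose, and Ins1 fell by 0.61 on C57 and by 0.73 on Mixed. Pam, which encodes the amidating enzyme of peptide hormones, rose by 0.94 on C57 and 1.27 on Mixed, and Cpe, which encodes carboxypeptidase E, by 0.76 and 0.72. The Scg2 call on C57 ended without the 3 high mitochondrial libraries (0.90 to 0.58, limma adjusted p = 0.0649), and the Ins1 calls ended under quantile normalization (adjusted p = 0.156 and 0.338) and with no filter (0.853 and 0.756), on C57 also under median-of-ratios scaling (0.0675). The limma interaction was called for 0 of these 9 genes, and 0 had an unadjusted p under 0.05. On Mixed, the beta-cell genes Ins1, Ucn3, Slc2a2, Nkx6-1 and Pdx1 fell with Slc30a8, 5 of the 7 beta-cell markers, and on C57 1 of the 7 fell and 1 rose. The C57 rise, of G6pc2 (0.38, limma adjusted p = 0.0459), was not called without the 3 high mitochondrial libraries (0.10, adjusted p = 0.649). Its call also ended under all 3 other scalings (adjusted p from 0.159 to 0.175), with no filter (0.13), with sample weights (0.11) and on the C57 mice alone (0.106). Leaving out any of C57 WT replicates 1 and 5 and C57 Het replicates 1, 2, 5 and 6 ended it too (up to 0.163).

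Slc30a8 held most of the SLC30 transcripts of the islet. Its share of the summed TPM of 10 SLC30 genes was 93.0 ± 1.57% in C57 WT, 92.5 ± 0.55% in C57 Het and 93.8 ± 0.36% in Mixed WT islets. In Mixed Het islets it was 88.4 ± 1.19%, from 87.3 to 90.1%, and no mouse of another group was below 90.4%. The other 9 SLC30 genes summed to 84.6 ± 8.58 TPM in C57 WT, 107 ± 10.1 TPM in C57 Het, 93.9 ± 10.2 TPM in Mixed WT, and 125 ± 14.8 TPM in islets of Mixed Het mice.

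Slc30a1 (ENSMUSG00000037434) encodes ZnT1, which exports zinc across the plasma membrane and whose gene is a known target of Mtf1. C57 WT islets had 7.65, 10.4, 9.41, 8.28 and 8.35 TPM, and C57 Het islets ran from 10.48 to 12.96 TPM with a median of 11.2 TPM. Each C57 Het mouse was above each C57 WT mouse, the nearest pair being 10.48 and 10.43 TPM. The difference was 0.33 (SE 0.12, limma adjusted p = 0.0312), and the exact permutation p was 0.00216 (adjusted 0.0173). Groups did not overlap in 21.0% of all genes in this comparison. The call ended when any of 5 single mice was left out (C57 WT replicates 1, 4 and 5, C57 Het replicates 1 and 2, adjusted p from 0.0502 to 0.0837), under all 3 other scalings (adjusted p from 0.089 to 0.124), with no filter on low values (0.0602) and without the 3 high mitochondrial libraries (0.25, adjusted p = 0.182).

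On Mixed, Slc30a1 was at 10.9, 11.8, 6.78, 7.11 and 8.86 TPM in WT mice and at 9.35 to 13.3 TPM in Het mice, with a median of 11.02 TPM. These groups overlapped. The difference of 0.28 did not pass (limma adjusted p = 0.0588), and the interaction was -0.05 (SE 0.17, adjusted p = 0.874). It passed without Mixed WT replicate 1 (0.35, adjusted p = 0.0255), Mixed WT replicate 2 (0.37, adjusted p = 0.0131) or Mixed Het replicate 6 (0.32, adjusted p = 0.0398). The 2 matches to the metal response element printed above belong to this gene.

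Slc30a7 and Slc30a5 encode ZnT7 and ZnT5, which supply zinc to the Golgi and the early secretory pathway. Slc30a7 (ENSMUSG00000054414) was at 16.2, 11.3, 10.97, 12.2 and 12.9 TPM in Mixed WT mice and rose in Mixed Het mice to a range of 13.7 to 22.9 TPM with a median of 19.6 TPM. Mixed WT replicate 1 and Mixed Het replicate 4 made the groups overlap. The difference was 0.55 (SE 0.13, limma adjusted p = 0.0014), with an exact permutation p of 0.00866 (adjusted 0.0277). On C57 it had 12.9, 10.4, 11.3, 14.1 and 9.23 TPM in WT and 12.0 to 16.8 TPM, median 14.5 TPM, in Het mice. The C57 difference of 0.29 did not pass (limma adjusted p = 0.0729), and neither did the interaction of 0.26 (adjusted p = 0.371). The C57 difference passed with sample weights (0.31, adjusted p = 0.0249), without C57 WT replicate 4 (0.36, 0.0361) and without C57 Het replicate 3 (0.34, 0.0458). Among Het mice Slc30a7 was higher on Mixed than on C57, by 0.38 (limma adjusted p = 0.0272). That call ended without any of 6 single Het mice, C57 Het replicates 1, 3 and 4 and Mixed Het replicates 1, 5 and 6, with adjusted p from 0.0505 to 0.0664, and with no filter (0.0509).

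Slc30a5 (ENSMUSG00000021629) was called in none of the 5 comparisons. Its group means were 25.4 ± 2.47 and 27.4 ± 2.78 TPM in WT and Het islets on C57, and 27.0 ± 2.74 and 30.5 ± 2.85 TPM on Mixed. The genotype differences were 0.10 on C57 (limma adjusted p = 0.352) and 0.17 on Mixed (adjusted p = 0.105). The C57 value changed sign under quantile normalization (-0.03). The Mixed difference passed only without Mixed WT replicate 1, which at 31.7 TPM was the highest WT mouse (0.23, adjusted p = 0.0357).

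The other SLC30 genes were read from a list of 6. Slc30a2, Slc30a3 and Slc30a10 had group means of 0.0682 TPM or less and were not tested. Of the 3 tested, 2 rose on C57 and 2 on Mixed, and 0 fell (0 at an unadjusted limma p under 0.05), where 26.4% and 30.7% of all genes rose, with a median difference of 0.38 on C57 and 0.22 on Mixed. Slc30a4 (ENSMUSG00000005802), which encodes a transporter of endosomal and secretory vesicles, was at 11.3 ± 2.72 and 21.2 ± 2.75 TPM in C57 WT and Het islets and at 16.7 ± 1.28 and 31.9 ± 6.72 TPM in Mixed WT and Het islets. It rose by 0.87 on each background (SE 0.14, limma adjusted p = 9.46e-05 on C57 and 4.82e-05 on Mixed), with Het mice above WT mice in every case. Groups did not overlap in 21.0% of all genes on C57 and 23.6% on Mixed. The rise was called in every alternative fit and every fit without 1 mouse, between 0.66 and 0.98 on C57 and between 0.75 and 0.97 on Mixed. Slc30a4 was also higher on Mixed than on C57, by 0.55 in WT (adjusted p = 0.0194) and 0.55 in Het (adjusted p = 0.0065). The WT call ended without the 3 high mitochondrial libraries (0.35, adjusted p = 0.251), without C57 WT replicate 1 or 5 (adjusted p = 0.0506 and 0.06) and in a fit on the WT mice alone (0.0563). Slc30a9 rose by 0.38 on C57 (adjusted p = 0.00102) and by 0.22 on Mixed (adjusted p = 0.0301), and the Mixed call ended under all 3 other scalings (lowest value 0.09), with sample weights (0.0797), without the 3 high mitochondrial libraries (0.0673) and without any of 4 single mice, Mixed WT replicates 3 and 4 and Mixed Het replicates 1 and 4 (up to 0.0934). Slc30a6, whose product pairs with ZnT5, differed by 0.05 and 0.15 and was not called.

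Slc39a8 (ENSMUSG00000053897) encodes ZIP8, an importer of zinc, manganese and iron. It was the gene of the 8 that differed most between backgrounds. C57 WT mice had 0.44, 0.411, 0.227, 0.212 and 0.462 TPM, and C57 Het mice ran from 0.376 to 0.736 TPM with a median of 0.477 TPM. Mixed WT mice had 3.49, 2.18, 3.98, 0.602 and 3.54 TPM, and Mixed Het mice ran from 1.75 to 14.2 TPM with a median of 6.38 TPM. Every Mixed mouse was above every C57 mouse of its genotype, and Mixed WT replicate 4, at 0.602 TPM, lay close to the C57 mice.

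The Mixed mean of Slc39a8 was 7.88 times the C57 mean in WT and 14.0 times in Het islets. On the log2(TPM + 1) scale, which understates the change of a gene this low, the difference was 1.37 in WT (SE 0.32, limma adjusted p = 0.00782) and 2.25 in Het (SE 0.29, adjusted p = 2.33e-05). Background was called for 1 of the 8 genes in WT islets, where 11.3% of all genes were called, and for 3 in Het islets, where 20.5% were called. Groups did not overlap between backgrounds in 6.12% of all genes in WT and 9.85% in Het. Since Slc39a8 passed the filter through its Mixed level alone, that it was among the genes tested is not separate from this difference. With no filter on low values the limma adjusted p was 0.0212 in WT and 0.00012 in Het. Leaving out each mouse in turn kept the difference between 1.25 and 1.66 in WT and between 2.03 and 2.53 in Het, with adjusted p up to 0.0255 and 0.000101.

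Within Mixed mice, Slc39a8 was higher in Het than in WT, 7.14 ± 4.27 against 2.76 ± 1.38 TPM (SD, n = 6 and 5). The difference was 1.04 (SE 0.31, limma adjusted p = 0.00951), but the groups overlapped and the exact permutation test did not pass (p = 0.0584, adjusted 0.0808). The call ended in a fit on the Mixed mice alone (adjusted p = 0.0526). On C57 the difference was 0.16 (adjusted p = 0.711), and the interaction of 0.87 (SE 0.44) did not pass (adjusted p = 0.209), except without Mixed Het replicate 3 (1.15, adjusted p = 0.0442). The highest Slc39a8 level, 14.2 TPM, was in Mixed Het replicate 5, and that mouse also had the highest sums of immune and mesenchymal markers. Mixed Het replicate 3 had the lowest Slc39a8 level of its group, 1.75 TPM, and the lowest mesenchymal sum, 56.8 TPM. Its immune sum, 254 TPM, was above that of every Mixed Het mouse but replicate 5. C57 WT replicate 5 had a mesenchymal sum of 86.6 TPM at 0.462 TPM of Slc39a8. The 6 immune markers summed to 112 to 178 TPM in C57 WT, 111 to 147 TPM in C57 Het, 109 to 157 TPM in Mixed WT but 162 to 333 TPM in Mixed Het islets. Most of the immune sum was Cd74, with means of 109 TPM in C57 WT and 169.5 TPM in Mixed Het islets. Of 5 immune markers tested, 5 rose on Mixed and 0 changed on C57 by limma (0 also at an unadjusted p under 0.05). Of 5 mesenchymal markers 4 rose on Mixed and 0 changed on C57 (1 at an unadjusted p under 0.05). Of all genes 30.7% rose on Mixed, and 38.0% were called on C57. The 5 mesenchymal markers summed to 33.0 to 86.6, 38.8 to 61.7, 30.6 to 59.7 and 56.8 to 345 TPM in the 4 groups. Between Het groups, where the background difference of Slc39a8 was 2.25, 5 of 5 immune, 5 of 5 mesenchymal and 3 of 5 endothelial markers were higher on Mixed. In this comparison 20.5% of all genes were called. With no filter the calls of Cd68 (limma adjusted p = 0.0632), Pecam1 (0.0764) and Esam (0.0654) ended. Those of Pecam1 and Esam also ended under the total without genes over 1% of a library (0.0652 and 0.0546). The Plvap call ended under quantile normalization (0.0656). Leaving out Mixed Het replicate 5 ended each of these calls (up to 0.104). Between WT groups, where Slc39a8 also differed and 11.3% of all genes were called, 1 of 5 immune markers was called, lower on Mixed, and 0 of 5 mesenchymal ones (0 at an unadjusted p under 0.05). That immune marker, Cd68 (-0.62, limma adjusted p = 0.0417), was not called without the 3 high mitochondrial libraries (-0.34, adjusted p = 0.418). Its call also ended with no filter (0.0853), with sample weights (0.147) and in a fit on the WT mice alone (0.196). Leaving out any of C57 WT replicates 1, 3, 4 and 5 and Mixed WT replicates 2, 3 and 4 ended it too (up to 0.124). The part of these cells in the Slc39a8 levels was not tested.

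Slc39a14 (ENSMUSG00000022094) encodes ZIP14, a close relative of ZIP8. Mixed WT mice had 6.45, 6.69, 5.51, 6.72 and 5.73 TPM and Mixed Het mice 6.82 to 9.31 TPM with a median of 8.16 TPM, with every Het mouse above every WT mouse. Groups did not overlap in 23.6% of all genes in this comparison. The difference was 0.32 (SE 0.12, limma adjusted p = 0.044), and the exact permutation p was 0.00433 (adjusted 0.0173). The limma call ended in 8 of the 11 fits without 1 mouse (every one but Mixed WT replicate 2 and Mixed Het replicates 2 and 4, adjusted p up to 0.104). It also ended under all 3 other scalings (0.20 to 0.23, adjusted p from 0.0896 to 0.132) and with no filter (0.0762). On C57 it had 7.89, 6.63, 5.81, 6.84 and 3.62 TPM in WT and 6.49 to 8.63 TPM, median 7.82 TPM, in Het mice. The C57 difference was 0.29 (limma adjusted p = 0.0659). It passed with sample weights (0.29, adjusted p = 0.00534), without C57 WT replicate 1 (0.38, 0.0224) and without C57 Het replicate 3 (0.33, 0.0473), and it was 0.14 without C57 WT replicate 5, the lowest mouse. The interaction was 0.02 (limma adjusted p = 0.953), and its sign turned under median-of-ratios scaling and quantile normalization. Between backgrounds Slc39a14 was not called, with differences of 0.04 in WT (adjusted p = 0.869) and 0.06 in Het (adjusted p = 0.757).

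The rest of the SLC39 family was read from a list of 12 genes, of which 9 were tested and Slc39a4, Slc39a5 and Slc39a12 were too low. On C57, 6 of 9 rose and 0 fell (0 at an unadjusted limma p under 0.05), where 26.4% of all genes rose, and the median difference was 0.24. On Mixed, 5 of 9 rose and 0 fell (0 unadjusted), where 30.7% of all genes rose, and the median was 0.27. Under the other scalings 3 or 4 of them rose on each background, and Slc39a13 fell on C57. Without the 3 high mitochondrial libraries 3 of the 9 were called on C57. Slc39a11 (ENSMUSG00000041654), which encodes ZIP11, an intracellular importer, had the largest differences of the 9. It rose from 11.5 ± 1.52 to 21.8 ± 2.93 TPM on C57 and from 11.6 ± 1.95 to 27.95 ± 3.47 TPM on Mixed. The differences were 0.87 (SE 0.11, limma adjusted p = 7.12e-06) and 1.2005 (SE 0.11, adjusted p = 4.5e-08), and the interaction of 0.33 did not pass (adjusted p = 0.193). Slc39a10 rose by 0.62 and 0.27 and Slc39a6, whose product pairs with ZIP10, by 0.43 and 0.44, and the Slc39a10 call on Mixed ended under all 3 other scalings, in 7 of the 11 fits without 1 mouse (adjusted p up to 0.1), with no filter (0.0541), with sample weights (0.0546) and without the 3 high mitochondrial libraries (0.0604). Slc39a1 and Slc39a3, importers of the plasma membrane, rose by 0.22 and 0.24 on C57 and by 0.26 and 0.31 on Mixed. Both C57 calls ended under all 3 other scalings (lowest values 0.09 and 0.11) and without the 3 high mitochondrial libraries (limma adjusted p = 0.108 and 0.147). The C57 call of Slc39a1 also ended without C57 WT replicate 1 (0.0923), and that of Slc39a3 without any of C57 WT replicates 4 and 5 and C57 Het replicates 1, 2 and 5 (0.053 to 0.0939). The Mixed call of Slc39a1 ended under all 3 other scalings (0.0943 to 0.217). Slc39a9 was called on C57 only, at 0.31 (limma adjusted p = 0.0313). That call ended without the 3 high mitochondrial libraries (0.15, adjusted p = 0.271), with no filter (0.0619) and on the C57 mice alone (0.0726). It also ended under quantile normalization (0.0971), under the total without genes over 1% of a library (0.102) and without C57 WT replicate 5 (0.123) or C57 Het replicate 5 or 6 (0.0734 and 0.058). The 14 SLC39 genes together summed to 161 ± 12.3 TPM in C57 WT, 198 ± 10.4 TPM in C57 Het, 171 ± 11.2 TPM in Mixed WT, and 226 ± 17.1 TPM in islets of Mixed Het mice.

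**Figure D3:**
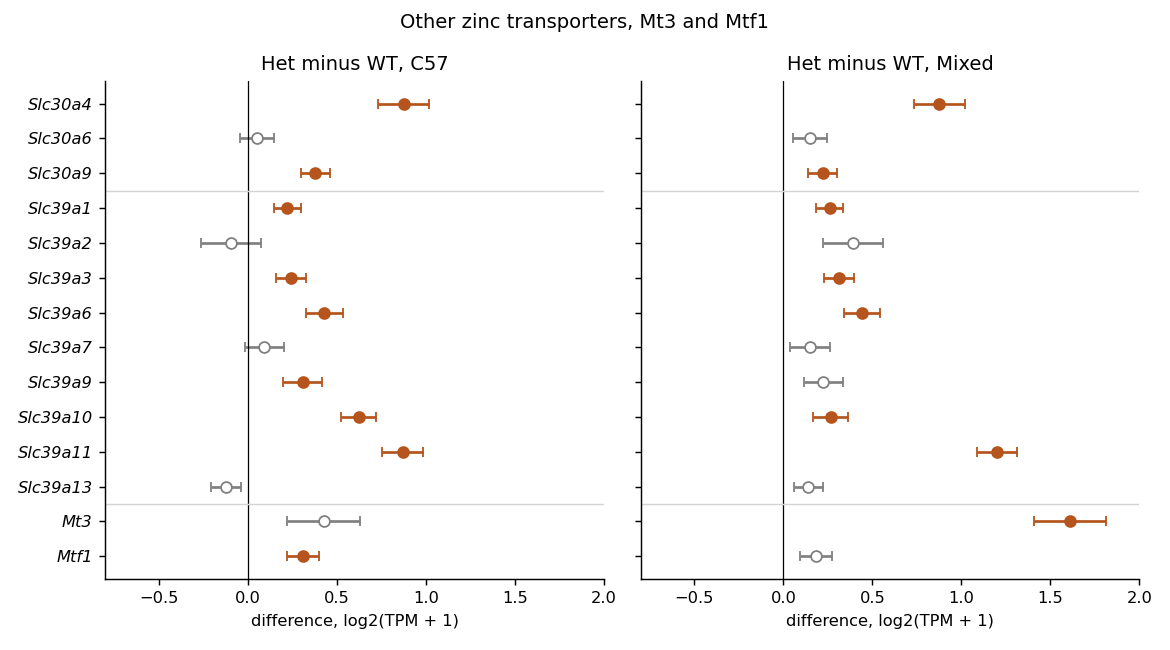
Fitted differences (Het minus WT, log2(TPM + 1) scale) of the other SLC30 and SLC39 transporters that passed the filter, of Mt3 and of Mtf1, on C57 and on Mixed. Points are limma estimates with ± 1 SE, and filled points have an adjusted p under 0.05; Slc30a4 and Slc39a11 lie at 0.87 or more on both backgrounds and Mt3 at 1.61 on Mixed.

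Mt1 (ENSMUSG00000031765) and Mt2 (ENSMUSG00000031762), the metallothioneins of most tissues, had lower means in Het islets of both backgrounds. On C57 the limma calls of this fall did not hold in every fit. Mt1 was at 432, 444, 357, 316 and 454 TPM in Mixed WT mice and at 203 to 369 TPM, median 261 TPM, in Mixed Het mice. Mt2 was at 594, 647, 539.6, 460.1 and 531 TPM in Mixed WT mice and at 188 to 384 TPM, median 271 TPM, in Mixed Het mice. Every Mixed Het mouse was below every Mixed WT mouse for Mt2, and for Mt1 all but replicate 3 were. Of all genes, 23.6% had groups that did not overlap in this comparison.

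The Het mean was 66.9% of WT for Mt1 and 50.6% for Mt2 on Mixed. The differences were -0.59 for Mt1 (SE 0.19, limma adjusted p = 0.0169) and -1.01 for Mt2 (SE 0.22, adjusted p = 0.000978). The exact permutation test gave p = 0.0108 for Mt1 (adjusted 0.0289) and p = 0.00433 for Mt2 (adjusted 0.0173). Both were called in every alternative fit and every fit without 1 mouse. Without the 3 libraries high in mitochondrial transcripts, 1 of them Mixed WT, the differences were -0.67 and -1.07 (adjusted p = 0.00596 and 0.000528).

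On C57, the fall of Mt1 and Mt2 rested on few mice. C57 WT mice had 486, 309, 339, 244 and 471 TPM of Mt1 and 679, 413, 435, 246 and 555 TPM of Mt2. C57 Het mice ran from 157 to 301 TPM, median 239 TPM, for Mt1 and from 184 to 391 TPM, median 277 TPM, for Mt2. Replicates 1 and 5, the highest C57 WT mice for both genes, were the C57 WT libraries with over 8% mitochondrial transcripts, and replicate 4 was the lowest and lay inside the Het range for both. The differences were -0.66 for Mt1 (SE 0.19, limma adjusted p = 0.0106) and -0.71 for Mt2 (SE 0.22, adjusted p = 0.0158). The exact permutation test did not pass adjustment for either gene (p = 0.0325 and 0.0433, adjusted 0.0742 and 0.077). Without the high mitochondrial libraries the values were -0.38 (adjusted p = 0.187) and -0.39 (adjusted p = 0.251). The Mt2 call also ended without replicate 1 (-0.55, adjusted p = 0.0606) or replicate 5 (-0.62, adjusted p = 0.0508) alone. With sample weights Mt1 was at -0.36 (adjusted p = 0.073) and Mt2 at -0.43 (adjusted p = 0.07).

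The interaction was 0.07 for Mt1 (SE 0.27, limma adjusted p = 0.9) and -0.30 for Mt2 (SE 0.31, adjusted p = 0.572). Neither passed the test, and the Mt1 value changed sign under quantile normalization (-0.02). Without the 3 high mitochondrial libraries the interactions were -0.29 (adjusted p = 0.599) and -0.68 (adjusted p = 0.264), and the WT differences between backgrounds 0.51 and 0.70 (adjusted p = 0.206 and 0.127). Neither gene differed by background within a genotype at the adjusted threshold, with estimates from 0.02 to 0.32, of which the lowest, Mt2 in Het, turned negative under all 3 other scalings. Together the 2 genes summed to 836 ± 265 TPM in C57 WT, 513 ± 138 TPM in C57 Het, 955 ± 122 TPM in Mixed WT, and 549 ± 124 TPM in islets of Mixed Het mice.

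Mt1 and Mt2 ranked the mice in the same order within each Het group and within C57 WT mice. In Mixed WT mice they did not, since replicate 5 was highest for Mt1 and second lowest for Mt2. The WT groups, of 5 mice each, were too small for a correlation. In C57 Het mice Pearson's r was 0.977 (n = 6, exact permutation p = 0.00139, adjusted over 2 relations 0.00278) and Spearman's rho was 1.0 (exact permutation p = 0.00278). In Mixed Het mice r was 0.955 (n = 6, exact permutation p = 0.00417, adjusted 0.00417) and rho 1.0 (p = 0.00278). Without the 2 mice farthest from the median of Mt1, r was 0.894 and 0.923 over the other 4. Mt1 made up 44.8 ± 3.18%, 45.6 ± 1.51% and 41.9 ± 2.51% of the pair in C57 WT, C57 Het and Mixed WT islets and 49.1 ± 2.11% in Mixed Het islets. How reads shared by these paralogs were counted is not given in the sources used here.

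**Figure D4:**
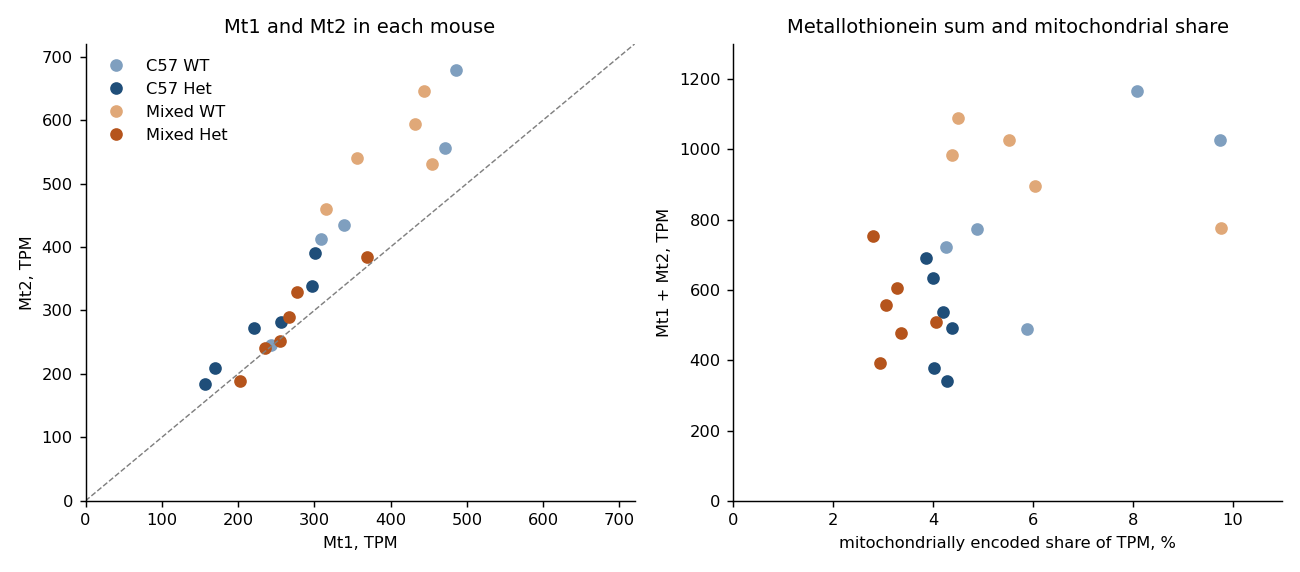
Left, Mt2 against Mt1 in TPM for each of the 22 mice, with the dashed line at equal levels; all mice but 2, both Mixed Het, lie above it. Right, the sum of Mt1 and Mt2 in TPM against the share of TPM from mitochondrially encoded genes; the C57 WT libraries above 8% have the highest C57 sums, and the Mixed WT library above 8% has 776 TPM.

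Mt3 (ENSMUSG00000031760), the metallothionein best known from brain, moved the opposite way. Mixed WT mice had 8.27, 4.76, 4.78, 9.95 and 10.7 TPM, and Mixed Het mice ran from 18.3 to 32.0 TPM with a median of 23.8 TPM, every one above the WT mice. Such a separation was found for 23.6% of all genes on Mixed. The rise was 1.61 on Mixed (SE 0.20, limma adjusted p = 2.25e-06). C57 mice had 4.65, 5.24, 4.97, 8.15 and 10.6 TPM in WT and 7.29 to 10.4 TPM in Het, with a median of 9.14 TPM, a difference of 0.42 that did not pass (adjusted p = 0.104). The interaction was 1.19 (SE 0.29, adjusted p = 0.0184), called in all 22 fits without 1 mouse and in the 9 other settings, with adjusted p up to 0.0424. At 24.8 ± 5.003 TPM in Mixed Het islets Mt3 stayed far below Mt1 and Mt2. Mt4 was listed at 0 in 21 mice. Mtf1, the zinc sensor, rose by 0.31 on C57 (adjusted p = 0.0105) and differed by 0.18 on Mixed (adjusted p = 0.104), and the C57 call ended without the 3 high mitochondrial libraries (adjusted p = 0.0868).

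Genes that answer to other inducers of metallothioneins were read from a pair of lists. Of 8 glucocorticoid-responsive genes 7 were tested, and 2 were called on C57 and 4 on Mixed, against 38.0% and 44.1% of all genes. Sgk1 and Nfkbia fell on C57, by 0.59 and 0.65, and Per1, Klf9 and Nfkbia fell on Mixed, by 1.23, 0.75 and 0.85, while Fkbp5 rose on Mixed by 0.67. The Fkbp5 call ended without Mixed WT replicate 4, alone or with the other high mitochondrial libraries (limma adjusted p = 0.0605 and 0.0609), and with sample weights (0.0607). The Nfkbia call on C57 ended without C57 WT replicate 2 (0.0603) and with no filter (0.0541). The Sgk1 call ended in 8 of the 11 fits without 1 mouse (adjusted p up to 0.174), and Sgk1 was at -0.13 with sample weights. The list's median difference was -0.19 on C57 and -0.29 on Mixed, and without the 3 high mitochondrial libraries 0 of the 7 were called by limma on C57 (1 at an unadjusted p under 0.05). Of 8 targets of NRF2, the factor of the oxidative stress response, 7 were tested. On C57 6 of them rose, where 26.4% of all genes rose, among them Hmox1, which encodes heme oxygenase, from 5.06 ± 1.11 to 9.69 ± 0.88 TPM, and on Mixed 4 rose, where 30.7% of all genes rose, Hmox1 from 7.92 ± 1.29 to 14.3 ± 1.54 TPM. None of the 7 fell by limma on either background, 0 of them at an unadjusted p under 0.05, and their median differences were 0.42 and 0.30. Srxn1, Txnrd1 and G6pdx rose on both backgrounds, Txnrd1 by 0.68 and 0.30. Gclc and Gclm were called on C57 only, at 0.31 and 0.37. Both calls ended without the 3 high mitochondrial libraries (0.19 and 0.24, limma adjusted p = 0.142 and 0.102) and under quantile normalization (0.0567 and 0.057). The Gclm call also ended under the total without genes over 1% of a library (0.0561). Nqo1 was at -0.34 on C57 and -0.14 on Mixed and was not called (limma adjusted p = 0.135 and 0.547). The Txnrd1 call on Mixed ended under all 3 other scalings, with no filter (limma adjusted p = 0.0761) and in 6 of the 11 fits without 1 mouse (lowest value 0.17, without Mixed WT replicate 5).

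For each of the 8 genes, the 3 genes of most similar pattern were found among 9818 genes tested with a mean of at least 5 TPM. Genes with provisional symbols and mitochondrially encoded genes were left out of these. Likeness was taken as the root mean square difference of z-scored log2(TPM + 1) over the 22 mice. The measure is 0 for identical patterns. The gene nearest to Mt1 was Mt2, at 0.302, and the next for both was Gadd45g, which encodes a stress-inducible regulator of growth arrest, at 0.335 from Mt1 and 0.329 from Mt2. The third was Sapcd1, at 0.601 from Mt1. Slc30a8 was nearest to Usp45, which encodes a deubiquitinase, at 0.312, then to Cep192 and Usp33. Slc30a7 was nearest to Dnajc1, an endoplasmic reticulum co-chaperone gene, at 0.318, then to Slc35a4 and Nploc4. Slc39a14 was nearest to Gca at 0.349, Slc30a5 to Hcfc2 at 0.366, Slc39a8 to Mrps12 at 0.418 and Slc30a1 to Hsd17b4 at 0.439. These mice share their groups, so likeness reflects group differences as well as differences between mice of 1 group.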

How the data were processed

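Poly(A) RNA of isolated islets was sequenced as paired-end reads of 150 bases, with 1 mouse per library, per the labels' protocols. The submitters' processing notes name STAR 2.7.10b, MultiQC 1.7 and the mouse build mm39; the counting tool is not given in the sources used here. The authors deposited 1 table of TPM with 22 value columns, each summing to 1000000, and 0 columns were left unused. Library depth cannot be read from TPM and is unknown, so no interval or floor based on read counts is given. Between 14812 and 16133 genes per library reached 1 TPM. No 2 libraries held identical values.

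All fits used log2(TPM + 1), a scale on which differences of low genes look smaller. Genes with at least 1 TPM in at least 5 mice were kept (16756). limma 3.58.1 in R 4.3.3 fitted the 4 group means in 1 model over the 22 mice (eBayes with trend), and Benjamini-Hochberg adjusted p-values were taken over all genes tested within each comparison, with a threshold of 0.05. Two-sided exact permutation tests over all splits of 5 against 6 mice were adjusted over 16 tests. The code was tested on simulated data. The library numbers in the labels follow the groups, so library order and group cannot be told apart.

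The 8 genes and the gene lists were chosen with earlier results of these data known. Named genes are the 8, Mafa, genes of the lists and, for each of the 8, the 3 genes of most similar pattern with a mean of at least 5 TPM. Provisional symbols and mitochondrially encoded genes were left out of that search. Alternatives were a pseudocount of 0.1, no filter, a mean of at least 5 TPM, 3 other scalings (median-of-ratios over 19637 genes, quantile, and a total without 13 genes that exceed 1% of a library), the mice of a comparison alone, eBayes without trend, sample weights, and leaving out each mouse in turn. Leaving out the 3 libraries with over 8% mitochondrial transcripts was added after seeing the data. Sequences are from RefSeq on GRCm38.p6, another build than that of the table, so its coordinates were used only for the promoter windows and to find neighbouring genes.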

Additional observations from a re-analysis of the deposited data

Results flagged for a closer look

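Slc30a8 in C57 WT replicate 5, at 665.4 TPM, stood apart from the other 4 mice of its group. On the log2(TPM + 1) scale the gap to the nearest mouse was 0.712 of the range of the group. Slc30a8 in C57 Het replicate 3, at 1028 TPM, stood apart from its group in the same way (0.627 of the range on that scale). In all, 40 groups of values were screened and 2 held such a mouse, where chance gives about 5% of groups.

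The limma interaction of Slc30a8 was called, at -0.786 (adjusted p = 0.0246), but not with no filter (adjusted p = 0.0617). Leaving out each mouse in turn kept it between -0.88 and -0.59. The limma interaction of Mt3 was called in the other direction, at 1.19 (adjusted p = 0.0184).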

How the results depend on the processing

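Of 915 values of the 8 genes under alternative settings, 825 kept their direction and their side of the threshold, 37 fell below it, 11 passed it and 42 changed sign. No paired analysis was possible because a replicate number follows accession order and serves as a name alone. The cause of the changes below was not tested, except where a filter removed a gene or changed how many were tested.

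Without the 3 libraries high in mitochondrial transcripts, limma called 0 of the 8 genes on C57 (3 with all libraries), 3 other SLC39 genes on C57, 0 of Mt3 and Mtf1 on C57, 0 glucocorticoid-responsive genes on C57 and 1 other SLC30 gene on Mixed. With no filter it called 0 of the 8 for the interaction, because more genes were tested, and 0 glucocorticoid-responsive genes on C57. With a mean of at least 5 TPM it called 0 of the 8 between WT backgrounds, because Slc39a8 was removed. Median-of-ratios scaling and the total without abundant genes left 1 other SLC30 and 3 other SLC39 genes on Mixed, and quantile normalization and sample weights left 1 other SLC30 gene. Sample weights called 2 of Mt3 and Mtf1 and 1 glucocorticoid-responsive gene on C57, and the fit on C57 mice alone called 1 of the latter.

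Leaving out each mouse in turn, the calls among the 8 were 1 to 5 on C57 and 1 to 2 for the interaction, those among the other SLC30 genes on Mixed, Mt3 and Mtf1 on C57, and glucocorticoid-responsive genes on C57 were 1 to 2 each, and those of the exact permutation tests 1 to 4 on C57 and 3 to 6 on Mixed.

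Signs turned only for differences that were not called. The Slc39a14 interaction was -0.0176 with median-of-ratios scaling, -0.0153 with quantile normalization, -0.0174 with sample weights and -0.0657 to 0.1706 without 1 mouse. Mt2 between Het backgrounds was -0.0277, -0.0923, -0.0384 and -0.1479 with median-of-ratios, quantile, the total without abundant genes and sample weights, and -0.0928 to 0.1256 without 1 mouse. Slc30a5 on C57 was -0.0256 with quantile normalization and -0.0053 with that total. The Mt1 interaction was -0.0168 with quantile normalization, -0.3353 with sample weights, -0.2949 without the 3 libraries and -0.0442 to 0.2041 without 1 mouse. Slc30a1 was -0.0099 and -0.0274 between WT backgrounds with quantile normalization and that total, -0.0757 to 0.1036 there without 1 mouse, -0.0845 to 0.009 between Het backgrounds and -0.1374 to 0.0419 for the interaction. Slc39a14 between WT backgrounds was -0.0664 without the 3 libraries and -0.1068 to 0.1295 without 1 mouse.

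Over all genes, the interaction was called for 1233 genes, and for 714 with no filter, 2628 with sample weights, 771 without Mixed Het replicate 5 and 419 without the 3 libraries. Between WT backgrounds 1892 genes became 1251 with a mean of at least 5 TPM, 831 in the fit on WT mice alone and 797 without the 3 libraries, between Het backgrounds 3428 became 2223 with a mean of at least 5 TPM and 6572 with sample weights, and on C57 6362 became 3859 without the 3 libraries. The share of calls that were higher in Het was 69.5% on C57 and 69.5% on Mixed, and 53.5% and 48.9% with median-of-ratios scaling. Of the interaction calls 62.8% were positive, and 39.4% with median-of-ratios scaling. For Mixed against C57 in Het, 65.2% and 48.8% of calls were higher on Mixed, in the same order. Between WT backgrounds 55.8% of calls were higher on Mixed, and 44.9% with the total without abundant genes.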

Other observations

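The neighbours of Slc39a8 on its chromosome were looked up after its values were seen. Nfkb1 differed between Mixed and C57 by 0.07 in WT (limma adjusted p = 0.693) and by -0.13 in Het islets (adjusted p = 0.3). Manba differed by -0.26 in WT (adjusted p = 0.0968) and was lower on Mixed in Het islets (-0.58, adjusted p = 0.000133). Ppp3ca, which encodes a calcineurin subunit, differed by -0.02 and -0.04, and rose in Het islets by 0.36 on C57 and 0.34 on Mixed (adjusted p = 0.00202 and 0.00245). Bank1 was below the filter.

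Around the Mt1 and Mt2 genes, Bbs2, a gene of the primary cilium, fell in Het islets by 0.27 on C57 and by 0.47 on Mixed (limma adjusted p = 0.0297 and 0.00045), and the C57 call ended with no filter (0.0567), without the 3 high mitochondrial libraries (0.0664) and without any of C57 WT replicates 1 and 4 and C57 Het replicates 2 and 3 (up to 0.107). Ogfod1 rose by 0.64 and 0.36 (adjusted p = 9.79e-05 and 0.00781). Nup93, a nuclear pore gene, was at 54.8 TPM in WT and 92.5 TPM in Het islets on C57 and at 53.7 and 54.3 TPM on Mixed, on average, and it rose on C57 by 0.75 (adjusted p = 0.00186). Its interaction of -0.69 did not pass (adjusted p = 0.0841). Slc12a3 was below the filter.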
